A study of Mus musculus with 12 samples.

Results

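The genes described here are the inhibitors of cyclin-dependent kinases (CDKs) and the D cyclins: Cdkn1a, Cdkn1b, Cdkn1c, Cdkn2a, Cdkn2b, Cdkn2c, Cdkn2d, Ccnd1, Ccnd2 and Ccnd3. They were chosen by name, 10 of the 48709 genes in the deposited count table, and all 10 had enough counts to be tested. RNA was sequenced from pancreatic islets of female mice labelled NSG RIP-DTR Htz, in 12 libraries that fall into 4 groups of 3. The control group (CTRL) was untreated, and the other groups received diphtheria toxin (DT) and carry the time labels 1, 3 and 5 DPA, taken to mean days post-ablation. Controls and toxin groups carried the same transgene, in which the rat insulin promoter drives the receptor for the toxin, so that the toxin acts on beta cells. NSG mice lack functional lymphocytes. The labels give the treatment of the controls as none. The labels do not tell whether each library is a different animal, and the p-values thus reflect the scatter of these samples alone, part or all of which may be technical. The series description calls the ablation partial and asks for the molecular response of islets to beta cell loss.

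Passage from the G1 to the S phase of the cell cycle depends on CDKs that phosphorylate the retinoblastoma protein and so release E2F transcription factors. D cyclins activate Cdk4 and Cdk6, the INK4 proteins (encoded by Cdkn2a, Cdkn2b, Cdkn2c and Cdkn2d) bind those kinases and block them, and the CIP/KIP proteins (encoded by Cdkn1a, Cdkn1b and Cdkn1c) inhibit a wider range of cyclin and CDK complexes. In mouse beta cells cyclin D2 is the D cyclin most needed for growth of the cell number after birth, and p16Ink4a, a product of Cdkn2a, accumulates with age.

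The Cdkn1a and Cdkn2a loci each hold alternative first exons, which the table merges into 1 count per gene. Their promoters are shown because Cdkn1a had the largest change of the 10 genes against CTRL and because Cdkn2a yields unlike proteins, p19Arf and p16Ink4a, from its starts. The 250 bases before each start were taken from a table of RefSeq promoters (build GRCm38.p6), in which 7 of the 10 genes were matched, with 11 starts. Capitals mark matches to the p53 decamer at the first Cdkn1a start, to the Sp1 motif GGGCGG at the second Cdkn1a start and the first Cdkn2a start, and to the E2F motif TTTNGCGC at the second Cdkn2a start. All were searched on both strands.
Cdkn1a first start, chr17:29090729-29090978, plus strand: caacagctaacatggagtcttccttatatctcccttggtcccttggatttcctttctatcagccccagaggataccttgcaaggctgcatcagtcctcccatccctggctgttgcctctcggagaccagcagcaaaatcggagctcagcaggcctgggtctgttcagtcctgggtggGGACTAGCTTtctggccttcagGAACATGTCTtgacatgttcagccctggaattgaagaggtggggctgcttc
Cdkn1a second start, chr17:29093519-29093768, plus strand: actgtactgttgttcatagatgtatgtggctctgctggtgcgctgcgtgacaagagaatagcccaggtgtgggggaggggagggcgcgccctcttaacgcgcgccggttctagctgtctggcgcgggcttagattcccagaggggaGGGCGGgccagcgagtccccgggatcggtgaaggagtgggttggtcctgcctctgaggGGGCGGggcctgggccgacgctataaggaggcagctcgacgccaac
Cdkn2a first start, chr4:89294620-89294869, minus strand: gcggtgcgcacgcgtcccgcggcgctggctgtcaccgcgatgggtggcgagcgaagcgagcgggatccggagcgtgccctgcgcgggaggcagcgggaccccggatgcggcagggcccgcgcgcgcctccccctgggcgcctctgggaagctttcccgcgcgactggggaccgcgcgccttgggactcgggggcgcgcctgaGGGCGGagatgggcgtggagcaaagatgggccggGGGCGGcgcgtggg
Cdkn2a second start, chr4:89282193-89282442, minus strand: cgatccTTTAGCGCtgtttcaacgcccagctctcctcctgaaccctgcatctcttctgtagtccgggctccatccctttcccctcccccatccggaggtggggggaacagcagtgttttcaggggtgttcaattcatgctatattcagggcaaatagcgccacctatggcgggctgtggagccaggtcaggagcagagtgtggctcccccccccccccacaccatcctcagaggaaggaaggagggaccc
The Cdkn1a starts lie 2790 bases apart and those of Cdkn2a 12427 bases apart. The p53 decamer was found in 7.13% of the 32851 promoters of the same length, GGGCGG in 32.7% and TTTNGCGC in 1.13%. A match describes letters only, and binding was not measured. Cdkn2b held 1 match to the cyclic AMP response element TGACGTCA, found in 1.55% of all promoters. GCGNGGGCG, the EGR motif, was found at Cdkn2c and Cdkn2d and in 4.70% of all promoters, and its matches overlapped matches to GGGCGG. The p53 decamer also matched once at Cdkn2d.

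Total counts were 29867083 to 50012558 per library. As a check of the labelled tissue, 11 beta cell markers together took 11.3% to 21.0% of all counts. Of these 11 markers 9 fell at 1 DPA, 4 at 3 DPA and 6 at 5 DPA, and none rose (edgeR). Of all genes tested 22.4%, 2.37% and 2.67% fell at those times. In bulk RNA, fewer cells of a type and less RNA per cell cannot be told apart. Markers of other cells moved as well. Among 13 macrophage markers 10 fell at 1 DPA, with a mean level of 2.53 to 2.89 log2 CPM (counts relative to the size of each library) against 2.85 to 4.87 in CTRL, where replicate 3 was the low library. At 3 DPA the macrophage level was 3.75 to 4.53 and at 5 DPA 5.02 to 5.53. Against CTRL none of the 13 was called at 3 DPA, and 2 were called higher at 5 DPA. Of 14 stromal markers 5 fell at 1 DPA (5.01 to 5.30 log2 CPM, against 6.43, 6.11 and 4.74 in CTRL replicates 1 to 3). Their level was 6.03 to 6.43 at 3 DPA and 6.59 to 7.19 at 5 DPA, where 1 and 3 of the 14 were called higher than CTRL. Of 12 endothelial markers 7 fell at 1 DPA, and none was called at 3 or 5 DPA. The 14 acinar markers varied widely within groups, at 1.31% to 7.94% of counts in CTRL, 0.671% to 6.05% at 1 DPA, 0.562% to 1.63% at 3 DPA and 1.03% to 3.91% at 5 DPA. Their median log2 fold change against CTRL was -0.47, -2.13 and -1.15 at the 3 times, and none was called. Of all marker genes read, the granulocyte genes S100a9 (in 3 libraries) and Mpo (in 1 library) were at 0 anywhere. Genes of the mitochondrial genome took 1.61% to 1.76% of counts at 1 DPA and 1.98% to 2.64% elsewhere.

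Of the CIP/KIP inhibitors, Cdkn1a rose at all 3 times and Cdkn1b rose at 1 DPA by a small amount, while Cdkn1c was not called at any time. Cdkn1a (p21, ENSMUSG00000023067, chromosome 17, 29090976 to 29100727, plus strand, mm10) is a target of p53 that arrests the cycle after DNA damage and other stresses. Its level was 41.8, 42.2 and 28.3 CPM in CTRL replicates 1 to 3 and 104, 93.5 and 87.1 CPM at 1 DPA. At 3 DPA it was 309.7, 176 and 371 CPM, and at 5 DPA 114, 131 and 149 CPM. Every toxin library was above every control, every 3 DPA library was above all others, and the 5 DPA libraries lay above those at 1 DPA. The group means were 37.4 ± 7.88, 94.7 ± 8.31, 286 ± 99.6 and 131 ± 17.9 CPM (SD, n = 3 each). The log2 fold changes against CTRL were 1.34 ± 0.25 (SE) at 1 DPA, 2.93 ± 0.27 at 3 DPA and 1.81 ± 0.26 at 5 DPA, that is 2.53-fold, 7.64-fold and 3.51-fold (edgeR adjusted p = 0.00149, 7.64e-05 and 0.00413). These 3 comparisons share the control libraries. At 5 DPA the call ended with the stromal score as a covariate (adjusted p = 0.113, log2 fold change 1.45). That score did not overlap between CTRL and 5 DPA, so the fit cannot separate it from the group.

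Between times, Cdkn1a rose from 1 to 3 DPA (log2 fold change 1.59 ± 0.25, edgeR adjusted p = 0.000678) and fell from 3 to 5 DPA by 1.12 ± 0.25 (adjusted p = 0.0430). It was 0.47 ± 0.25 higher at 5 than at 1 DPA, which was not called (adjusted p = 0.132). With the macrophage or stromal score as a covariate the rise from 1 to 3 DPA was 0.90 or 1.18 (edgeR adjusted p = 0.0421 and 0.0305). The difference from 1 to 5 DPA was then -0.62 or -0.13 and not called (adjusted p = 0.305 and 0.862). Both scores at 1 DPA lay below those at 3 and 5 DPA, so these fits cannot separate them from time. Of the called changes between times, the fall from 3 to 5 DPA is the least secure. With the replicate number as a block it was -1.10 (adjusted p = 0.0921), and the call ended in 17 of 22 other settings, with adjusted p up to 0.194. Leaving out any 1 of 10 of the 12 libraries ended it, and it held without CTRL replicate 3 or without 3 DPA replicate 2, the lowest library of its group (adjusted p = 0.0308 and 0.00645). The log2 fold change was -1.37 to -0.89 in the 12 omissions. Over all genes this comparison had 547 calls, and 31 to 1018 in the same omissions.

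Cdkn1b (p27, ENSMUSG00000003031, chromosome 6, 134920401 to 134925513, plus strand), which holds quiescent cells out of the cycle and is regulated largely by protein turnover, was measured at 103, 111 and 115 CPM in CTRL and 133, 132 and 146 CPM at 1 DPA. It was 109.6, 126 and 111 CPM at 3 DPA and 102, 114 and 111 CPM at 5 DPA. The 1 DPA libraries stood above all 9 others, and the later groups overlapped the controls. The rise at 1 DPA was 0.32 ± 0.07 on the log2 scale, 1.25-fold (edgeR adjusted p = 0.00323). Cdkn1b then fell by 0.25 ± 0.07 from 1 to 3 DPA (adjusted p = 0.0177) and was lower by 0.33 ± 0.07 at 5 than at 1 DPA (adjusted p = 0.00252). The macrophage score was low in all 1 DPA libraries, and once it was included in the fit the 3 differences were 0.22, -0.13 and -0.14 and none was called (adjusted p = 0.0942, 0.373 and 0.523). The score was 2.53 to 2.89 log2 CPM at 1 DPA, 3.75 to 4.53 at 3 DPA and 5.02 to 5.53 at 5 DPA. Between those times the fit thus cannot separate it from time, and the part of macrophages was not tested. The call from 1 to 3 DPA also ended without replicate 3 of 1 DPA (adjusted p = 0.0702), replicate 1 of 3 DPA (0.0655) or replicate 3 of 3 DPA (0.0691). Without the 50 most abundant genes in the library sizes and without TMM factors, the falls to 3 and 5 DPA were -0.14 and -0.18. Neither was then called (edgeR adjusted p = 0.143 and 0.0525), while the rise at 1 DPA was 0.20 (0.0384). The stromal score ended the calls of both falls too (adjusted p = 0.338 and 0.427).

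Cdkn1c (p57, ENSMUSG00000037664, chromosome 7, 143458339 to 143461050, minus strand) is an imprinted gene whose loss is linked to beta cell hyperplasia in the human infant pancreas. Its level was 7.98, 8.45 and 8.89 CPM in CTRL and 5.53, 6.39 and 7.07 CPM at 1 DPA, with no overlap, and 6.90 to 9.98 CPM at 3 and 5 DPA. The difference at 1 DPA, -0.42 ± 0.16 on the log2 scale, just missed the threshold (edgeR adjusted p = 0.0520). It passed in 7 of 22 other settings, DESeq2 among them (adjusted p = 0.0372). On the deposited TPM scale (a unit that corrects for gene length) the same groups overlapped, at 6.05 to 9.98 and 8.37 to 9.84.

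**Figure D1:**
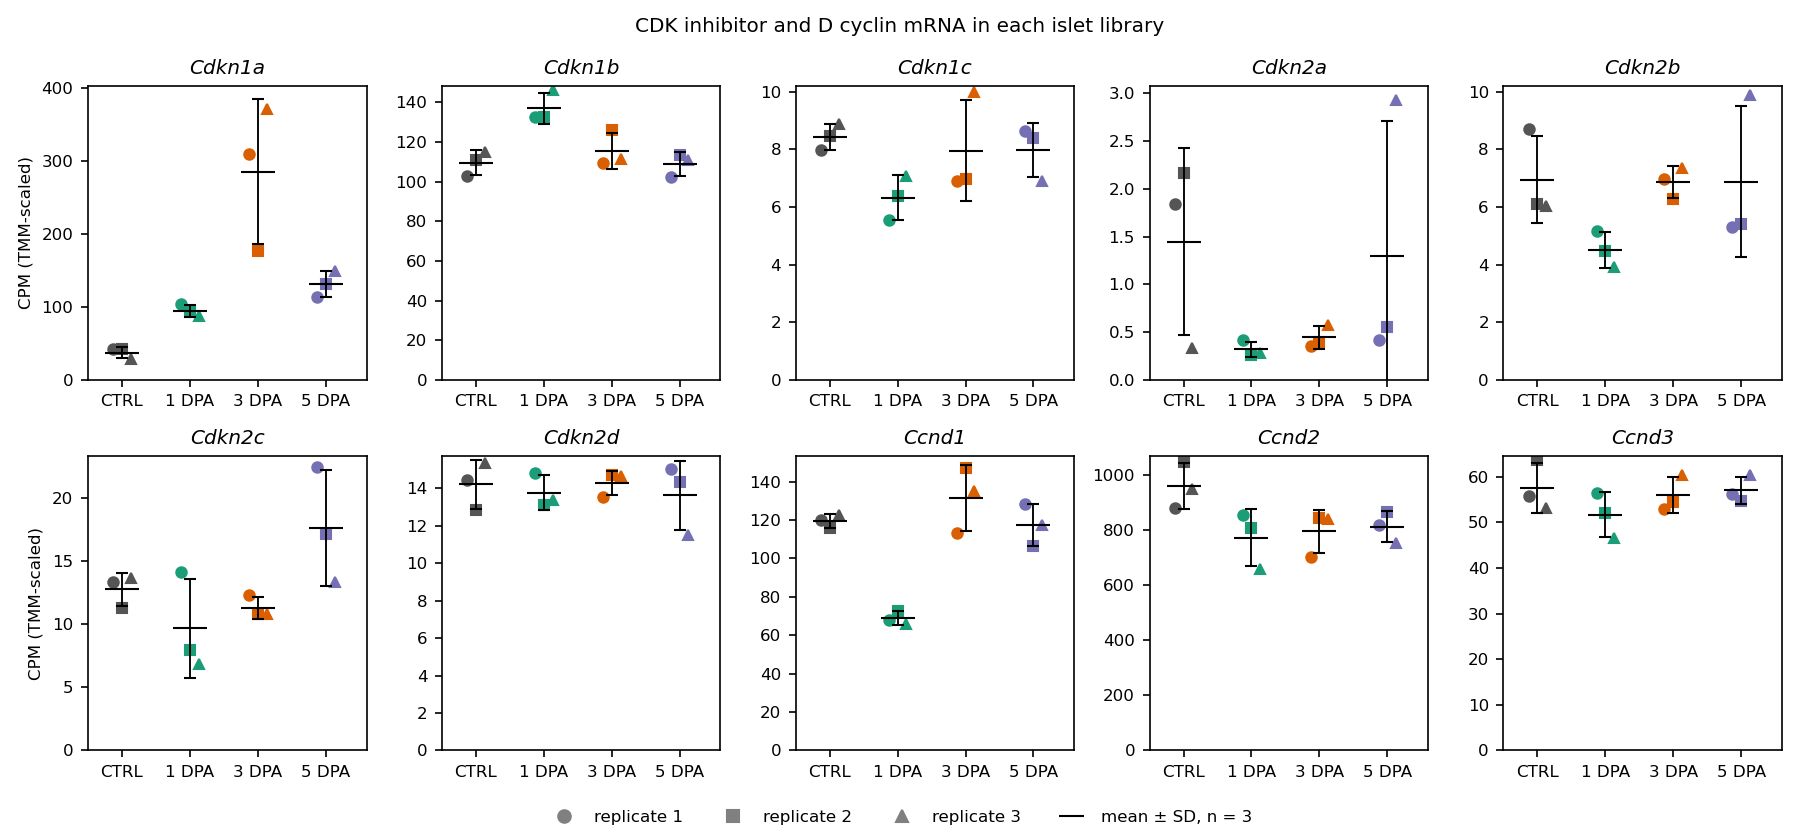
Level of each CDK inhibitor and D cyclin gene in the 12 libraries, in TMM-scaled CPM, by group; symbols give the replicate, and lines the mean ± SD of 3 libraries (the lower SD limit of Cdkn2a at 5 DPA is below 0 and not drawn). Cdkn1a was highest at 3 DPA (176 to 371 CPM against 28.3 to 42.2 in CTRL), Ccnd1 was lowest at 1 DPA (65.7 to 72.8 CPM), and Cdkn2a in CTRL and at 5 DPA was split between libraries.

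No INK4 inhibitor was called higher than CTRL at any time, and 1 of them, Cdkn2a, was called lower at 1 DPA. Cdkn2a (ENSMUSG00000044303, chromosome 4, 89274471 to 89294653, minus strand) had the lowest TPM of the 10 genes in every group, with 71, 90 and 15 counts in CTRL, 15, 10 and 9 at 1 DPA, 17, 14 and 28 at 3 DPA and 22, 28 and 106 at 5 DPA. In CPM this was 1.85, 2.16 and 0.333 in CTRL, 0.413, 0.264 and 0.285 at 1 DPA, 0.360, 0.396 and 0.578 at 3 DPA and 0.418, 0.555 and 2.92 at 5 DPA. CTRL replicates 1 and 2 and 5 DPA replicate 3 were high, and the other 9 libraries lay together between 0.264 and 0.578 CPM. CTRL replicate 3 fell inside the 1 DPA range. The log2 fold change at 1 DPA was -2.16 ± 0.82 (edgeR adjusted p = 0.0464), and the call ended in 14 of 22 other settings, among them the omission of replicates 1 or 2 of CTRL or of any library at 1 or 3 DPA, where adjusted p was 0.0540 to 0.123. In a fit that included the macrophage score the difference turned to 0.30 (adjusted p = 0.821). The libraries high for Cdkn2a had macrophage levels of 4.87, 4.41 and 5.53 log2 CPM, and 5 DPA replicates 1 and 2, where Cdkn2a was low, had 5.02 and 5.04. The part of these cells in the result was not tested.

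Cdkn2b (p15Ink4b, ENSMUSG00000073802, chromosome 4, 89306299 to 89311039, minus strand) lies next to Cdkn2a and is known as a target of TGF-beta signalling. It was measured at 8.71, 6.12 and 6.03 CPM in CTRL, 5.18, 4.46 and 3.93 CPM at 1 DPA, 6.28 to 7.35 CPM at 3 DPA and 5.32, 5.41 and 9.90 CPM at 5 DPA. The 1 DPA libraries were the lowest of all, below every other library. At -0.62 ± 0.24 on the log2 scale the difference from CTRL was not called (edgeR adjusted p = 0.0507), and it was called in 11 of 22 other settings. With the macrophage score it was -0.20 (adjusted p = 0.623), and the part of macrophages was not tested. The high library at 5 DPA was replicate 3, which was also high for Cdkn2a.

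Cdkn2c (p18Ink4c, ENSMUSG00000028551, chromosome 4, 109660876 to 109667189, minus strand) is an E2F-responsive inhibitor that can be high in cycling cells. Its values were 13.3, 11.3 and 13.7 CPM in CTRL, 14.2, 7.97 and 6.85 CPM at 1 DPA, 12.3, 10.8 and 10.8 CPM at 3 DPA and 22.4, 17.1 and 13.3 CPM at 5 DPA. It was not called against CTRL at 5 DPA (log2 fold change 0.47 ± 0.25, edgeR adjusted p = 0.284). From 1 to 5 DPA it rose by 0.87 ± 0.25 (adjusted p = 0.0132), although 1 DPA replicate 1 overlapped the later group. Omission of replicate 2 of 1 DPA (adjusted p = 0.0556) or replicate 1 of 5 DPA (0.0567) ended that call, as did the macrophage or stromal score (0.151 and 0.204). Neither score overlapped between those times, so these fits cannot separate it from time. The library with most Cdkn2c, 5 DPA replicate 1, also had the highest mean level of 14 proliferation genes, 4.13 log2 CPM against 3.42 and 3.50 in the other 5 DPA libraries and 1.98 to 2.89 elsewhere; their part in the result was not tested. Cdkn2d (p19Ink4d, ENSMUSG00000096472, chromosome 9, 21288410 to 21291407, minus strand), the INK4 gene with the highest level per length, stayed between 11.5 and 15.4 CPM in all 12 libraries and was called in none of the 6 comparisons (log2 fold changes -0.07 to 0.05, SE 0.11).

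**Figure D2:**
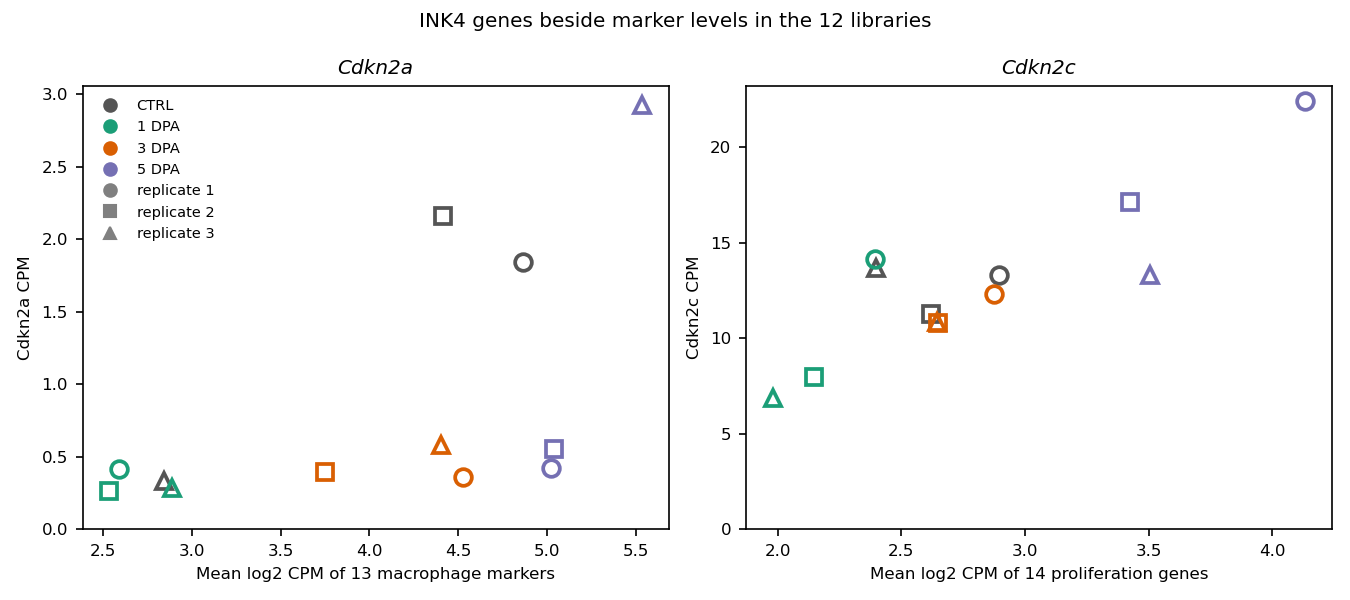
Level of Cdkn2a against the mean level of 13 macrophage markers (left) and of Cdkn2c against that of 14 proliferation genes (right), 1 point per library, colour for group and shape for replicate. Cdkn2a was at 1.85 to 2.92 CPM in 3 libraries with macrophage levels of 4.41 to 5.53, while 3 DPA replicates 1 and 3 and 5 DPA replicates 1 and 2, at 4.40 to 5.04, had 0.360 to 0.578 CPM; Cdkn2c reached 22.4 CPM in the library with the highest proliferation level.

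Among the D cyclins, Ccnd1 and Ccnd2 fell at 1 DPA, none was called higher than CTRL at any time, and Ccnd3 was not called. Ccnd1 (cyclin D1, ENSMUSG00000070348, chromosome 7, 144929931 to 144939925, minus strand), which links growth factor signals to the cycle in many tissues, was measured at 120.0, 116 and 123 CPM in CTRL and 68.0, 72.8 and 65.7 CPM at 1 DPA. It was 113, 147 and 135 CPM at 3 DPA and 128, 106 and 117 CPM at 5 DPA. All 1 DPA libraries were below the other 9, and the later groups overlapped CTRL. The fall at 1 DPA was 1.74-fold (log2 fold change -0.80 ± 0.09, edgeR adjusted p = 2.74e-05). Ccnd1 rose again by 0.94 ± 0.09 from 1 to 3 DPA (adjusted p = 1.75e-05) and was 0.77 ± 0.09 higher at 5 than at 1 DPA (adjusted p = 3.97e-05). These 3 calls held in all 22 other settings. At 3 and 5 DPA the differences from CTRL were 0.14 ± 0.09 and -0.03 ± 0.09 and were not called (adjusted p = 0.409 and 0.888).

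Ccnd2 (cyclin D2, ENSMUSG00000000184, chromosome 6, 127125162 to 127152193, minus strand) was the D cyclin with the highest TPM in every library. Its level was 883, 1049 and 952 CPM in CTRL, 855, 808 and 659 CPM at 1 DPA, 704, 844 and 840.2 CPM at 3 DPA and 818, 867 and 754 CPM at 5 DPA. Every toxin library lay below every control, as 23.5%, 11.1% and 12.2% of all genes tested did at 1, 3 and 5 DPA. The log2 fold change was -0.31 ± 0.11 at 1 DPA, 1.24-fold lower and called (edgeR adjusted p = 0.0333). At 3 and 5 DPA it was -0.27 ± 0.11 and -0.24 ± 0.11, of similar size but not called (adjusted p = 0.147 and 0.204), against the same controls. The call at 1 DPA ended when CTRL replicate 2, the highest library, was omitted (adjusted p = 0.0626), when 1 DPA replicate 2 or 3 was omitted (0.0532 and 0.0531) and with only the 2 groups fitted (0.0545). In TPM the 1 DPA libraries (274 to 292) and the 5 DPA libraries (255 to 294) overlapped CTRL (283 to 310.0), and the 3 DPA libraries (245 to 277) did not.

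Ccnd3 (cyclin D3, ENSMUSG00000034165, chromosome 17, 47505051 to 47599691, plus strand), prominent in blood cell precursors, was measured at 57.5 ± 5.41 CPM in CTRL and 51.7 ± 4.94, 56.0 ± 3.93 and 57.0 ± 2.95 CPM at 1, 3 and 5 DPA (SD, n = 3 each). The groups overlapped throughout and no comparison was called (log2 fold changes against CTRL -0.15, -0.04 and -0.01, SE 0.09). When the 50 most abundant genes were left out of the library sizes and no TMM factors were used, it was called lower at 1 DPA (-0.28, edgeR adjusted p = 0.0131). A pair of genes overlap a D cyclin on the opposite strand and carried 568 to 1181 counts per library. Oraov1 overlaps the end of Ccnd1 and was not called at 1 DPA (0.24 ± 0.10, adjusted p = 0.0622). Bysl, a ribosome assembly factor gene, overlaps the end of Ccnd3 and rose at 1 DPA (0.73 ± 0.11, adjusted p = 0.000145). Libraries were made with a stranded kit, per the labels, but whether counting used strand is not given in the sources used here, so shared reads cannot be told apart if it did not.

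**Figure D3:**
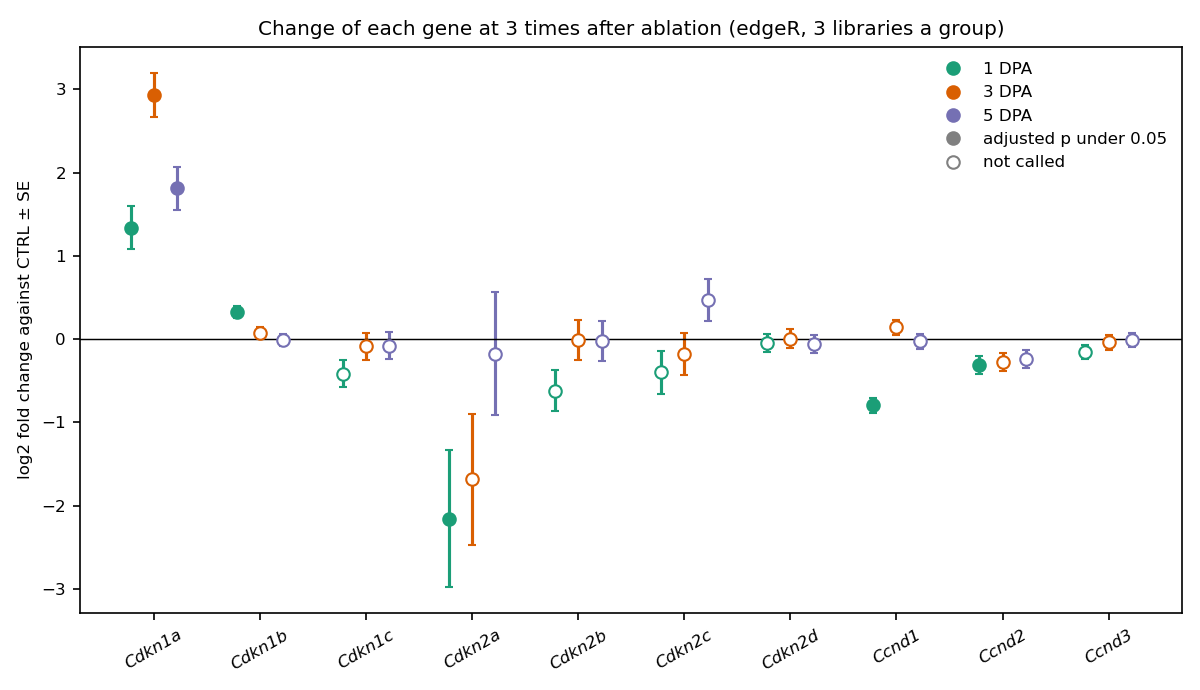
Log2 fold change of each gene against CTRL ± SE at 1, 3 and 5 DPA from the edgeR fit of 12 libraries; filled points are called (adjusted p under 0.05), open points are not. Cdkn1a was called at every time (1.34, 2.93 and 1.81), and Cdkn1b, Cdkn2a, Ccnd1 and Ccnd2 were called at 1 DPA.

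In all, 5 of the 10 genes were called at 1 DPA (Cdkn1a and Cdkn1b higher, Cdkn2a, Ccnd1 and Ccnd2 lower), beside 51.6% of all 17294 genes tested, so the count is near the background. At 3 DPA 1 of 10 was called (12.6% of all genes) and at 5 DPA 1 of 10 (8.54%), Cdkn1a in both. The median log2 fold change of the 10 genes was -0.36 at 1 DPA, -0.03 at 3 DPA and -0.02 at 5 DPA, beside -0.05, -0.01 and 0.01 over all genes tested. At 1 DPA 6 genes did not overlap CTRL (2 above, 4 below), beside 54.7% of all genes. The 4 below were Cdkn1c, Cdkn2b, Ccnd1 and Ccnd2. Between times 3 of 10 were called from 1 to 3 DPA (45.1% of all genes), 1 from 3 to 5 DPA (3.16%) and 3 from 1 to 5 DPA (56.1%). Over the 4 groups together 4 of 10 differed, Cdkn1a (edgeR F-test, adjusted p = 4.74e-05), Ccnd1 (3.27e-05), Cdkn1b (0.00598) and Cdkn2c (0.0498), beside 57.4% of all genes. By size, 467 of the 17294 genes had a larger rise than Cdkn1a at 3 DPA, 552 at 5 DPA and 1423 at 1 DPA. Scaling changes the count at 1 DPA: without the 50 most abundant genes in the library sizes, 8 of 10 were called (2 higher, 6 lower). That scaling, which also drops the TMM factors, moved the median of all genes at 1 DPA from -0.05 to -0.18. The split of all calls went from 5045 higher and 3871 lower to 4223 and 5523.

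On the TPM scale, where levels of different genes can be compared, Ccnd2 was the most abundant of the 10 in CTRL (299.7 ± 14.7 TPM, SD, n = 3). Ccnd1 (55.0 ± 4.79) and Cdkn1b (52.2 ± 4.29) followed with overlapping values, then Cdkn1a (36.3 ± 6.71), Cdkn2d (24.3 ± 3.54) and Ccnd3 (20.2 ± 0.690), the last pair overlapping. Cdkn2b (10.8 ± 2.66), Cdkn2c (10.3 ± 1.63) and Cdkn1c (8.97 ± 0.775) overlapped their neighbours, and Cdkn2a (2.62 ± 1.72) was lowest. Cdkn1a moved up this order. It stood in the second place at 1 DPA (107 ± 4.75 TPM) and at 5 DPA (139 ± 16.4), apart from its neighbours. At 3 DPA, with 336, 179.7 and 382 TPM, it overlapped Ccnd2 (245, 276 and 277 TPM). In every 3 DPA library but replicate 2, Cdkn1a was the more abundant of the pair. Ccnd1 was below both Cdkn1a and Cdkn1b at 1 DPA, with 37.0 ± 4.26 TPM.

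Shares within each family are given as a description and were not tested. As a share of CIP/KIP TPM (mean ± SD, n = 3), Cdkn1a made up 37.2% ± 6.21 in CTRL libraries, and 56.1% ± 3.51, 80.1% ± 7.25 and 67.8% ± 2.62 in those of 1, 3 and 5 DPA. No 2 groups overlapped. The summed CIP/KIP level was 97.4 ± 2.62 TPM in CTRL, 192 ± 20.7 TPM at 1 DPA and 367 ± 104 TPM at 3 DPA, and 194 to 223 TPM in the 5 DPA libraries. Per library, Cdkn1a was 0.503 to 0.833 times the level of Cdkn1b in CTRL, 1.22 to 1.60 times at 1 DPA, 2.86 to 6.83 times at 3 DPA and 2.28 to 2.75 times at 5 DPA. The summed D cyclin level moved less, at 375 ± 14.5 TPM in CTRL and 338 ± 12.4, 352 ± 24.3 and 358 ± 24.7 TPM. Every 1 DPA library (328 to 352 TPM) was below every control (360 to 388 TPM). The sums at 3 DPA (324 to 367 TPM) and 5 DPA (337 to 385 TPM) overlapped CTRL. Ccnd2 gave 79.9% ± 1.30 of the D cyclin sum in CTRL and 82.8% ± 1.20, 75.6% ± 0.340 and 77.4% ± 2.20 at the 3 times. The share of Ccnd1 was 14.7% ± 1.33 in CTRL, 10.9% ± 1.07 at 1 DPA, 18.4% ± 0.794 at 3 DPA and 16.5% ± 1.77 at 5 DPA. Its 1 DPA libraries were below and its 3 DPA libraries above all controls. The INK4 sum was 41.4 to 60.6 TPM over the 12 libraries, and Cdkn2d was its largest component in each of them (38.3% to 65.2%), with shares at 3 and 5 DPA that overlapped CTRL.

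**Figure D4:**
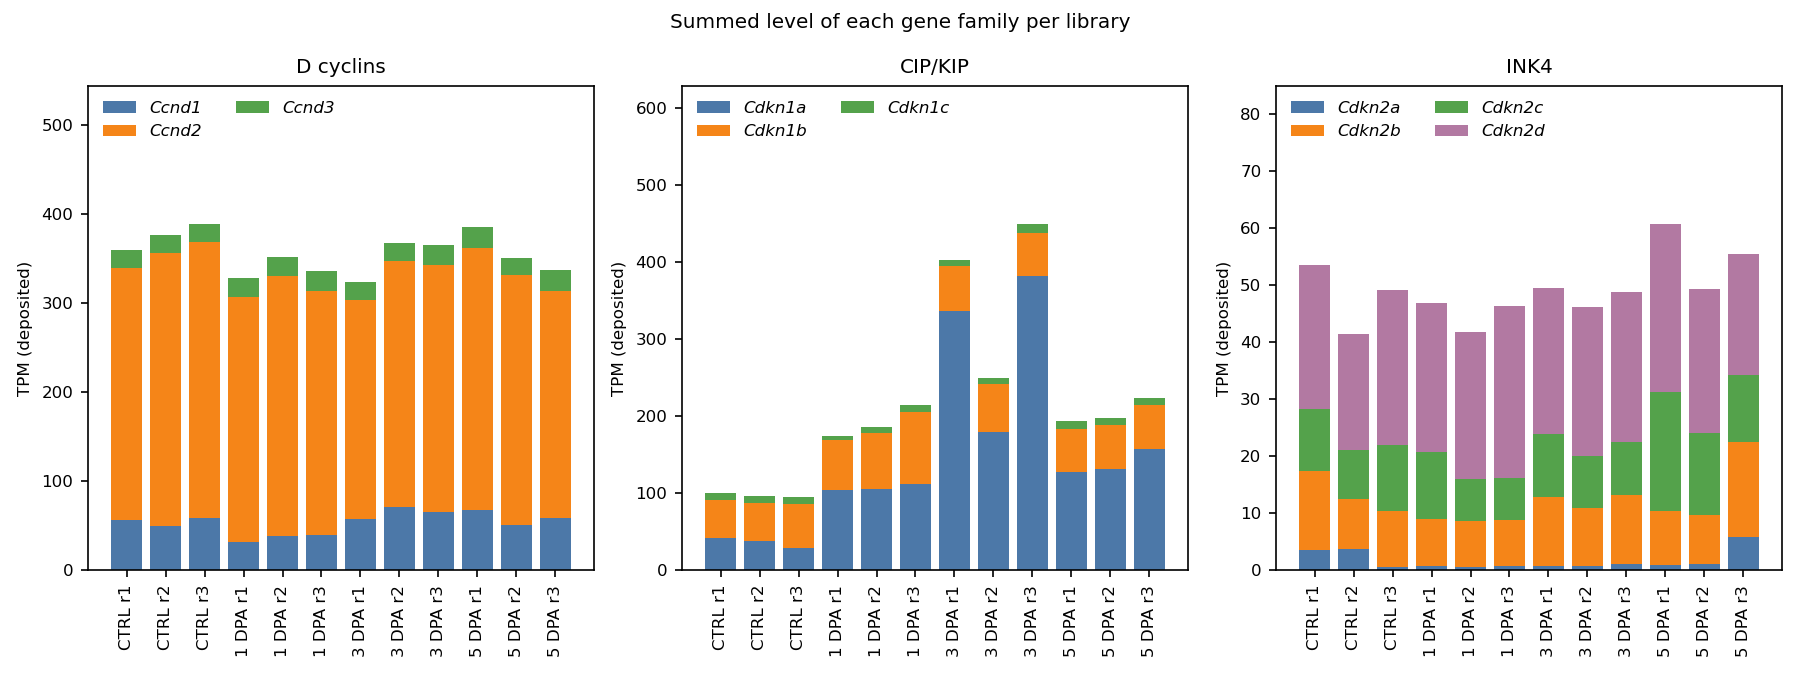
Stacked TPM of the D cyclins (left), CIP/KIP inhibitors (middle) and INK4 inhibitors (right) in each library, with separate linear axes from 0. The CIP/KIP sum went from 97.4 ± 2.62 TPM in CTRL to 367 ± 104 TPM at 3 DPA, 80.1% ± 7.25 of it Cdkn1a. The D cyclin sum was between 324 and 388 TPM in all 12 libraries, with each 1 DPA library (328 to 352) below each control (360 to 388).

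The genes around these regulators were taken from 5 lists of 84 genes, 81 of them tested. Of the 14 CDKs and later G1/S cyclins, 4 rose and 3 fell at 1 DPA (29.2% and 22.4% of all genes tested), none was called at 3 DPA and 4 rose at 5 DPA (5.87% of all genes). At 1 DPA the rises were led by Mnat1 (log2 fold change 0.72 ± 0.11), a subunit of the CDK-activating kinase, the phosphatase Cdc25a (0.36 ± 0.07) and the chaperone Cdc37 (0.39 ± 0.10), with edgeR adjusted p 0.000174 to 0.00489. The Cdc37 call ended without 1 DPA replicate 3 (adjusted p = 0.0545). The kinases that D cyclins bind are given outside the naming rule: Cdk4 was called lower at 1 DPA (-0.16 ± 0.06, adjusted p = 0.0383, lost when CTRL replicate 3, either of 1 DPA replicates 1 and 2, or replicate 1 of 5 DPA was omitted, with the replicate number as a block and with only the 2 groups fitted), and Cdk6 was not called (-0.38 ± 0.23). At 5 DPA cyclin A2, Ccna2, rose from 4.32 ± 0.752 to 10.9 ± 4.21 CPM (1.33 ± 0.25, adjusted p = 0.00892). The mitotic kinase Cdk1 rose from 2.34 ± 0.376 to 6.76 ± 2.37 CPM (1.53 ± 0.33, adjusted p = 0.0184) and Ccnb1, cyclin B1, from 1.92 ± 0.526 to 5.78 ± 2.65 CPM (1.59 ± 0.35, adjusted p = 0.0190). Omitting replicates 2 or 3 of CTRL, or replicate 1 of 5 DPA, ended the calls of Cdk1 and Ccnb1. The proliferation marker Mki67 was called lower at 1 DPA (-0.96 ± 0.35, adjusted p = 0.0415, a call that ended in 11 of 22 other settings, among them the omission of replicate 1 or 3 of CTRL, or of replicate 2 or 3 at 1 or 3 DPA) and was not called at 5 DPA (1.21 ± 0.34, adjusted p = 0.0558). Mki67 does not stand for its list: of the 14 proliferation genes 12 rose and none fell at 5 DPA (median log2 fold change 1.09), while 2 rose and 8 fell at 1 DPA (median -0.68). With the macrophage or stromal score as a covariate, both highest at 5 DPA, none of the 81 genes was called at 5 DPA. Over all 17294 genes the calls at 5 DPA fell from 1477 to 198 and 89 with these scores. Neither score overlapped between CTRL and 5 DPA, so these fits cannot separate it from the group.

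Of 16 pocket protein and E2F genes, 5 rose and 6 fell at 1 DPA (29.2% and 22.4% of all genes). The retinoblastoma gene Rb1 was 39.8 ± 2.31 CPM in CTRL and 55.0 ± 1.53 CPM at 1 DPA, a rise of 0.47 ± 0.06 on the log2 scale (edgeR adjusted p = 3.09e-05), and the E2F partner Tfdp1 rose from 47.5 ± 1.88 to 70.9 ± 3.67 CPM (0.58 ± 0.07, adjusted p = 2.05e-05). Rbl2, the pocket protein p130, fell from 53.6 ± 1.61 to 35.8 ± 0.744 CPM (-0.58 ± 0.07, adjusted p = 1.71e-05). At 3 DPA Lin54, a subunit of the DREAM complex, was higher (0.41 ± 0.10) and Tfdp2 lower (-0.31 ± 0.08), with adjusted p 0.0190 and 0.0225. Lin54 lost its call when replicate 1 or 2 of CTRL or replicate 1 of 3 DPA was omitted, and Tfdp2 when replicate 3 of CTRL or replicate 2 or 3 of 3 DPA was. At 5 DPA the transcription factor of mitotic genes Foxm1 (0.99 ± 0.23) and the repressor E2f8 (1.44 ± 0.33) rose, with adjusted p 0.0232 and 0.0234. Both calls were lost when CTRL replicate 2, CTRL replicate 3 or replicate 1 of 5 DPA was omitted, and that of E2f8 also when replicate 3 of 5 DPA was.

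In the list for turnover of CDK inhibitors and D cyclins, 8 of 15 genes rose and 2 fell at 1 DPA (29.2% and 22.4% of all genes tested), 2 rose at 3 DPA (10.2% of all genes) and 1 rose at 5 DPA (5.87%). Ambra1, the receptor of the ubiquitin ligase that degrades D cyclins, rose by 0.92 ± 0.08 (log2) at 1 DPA, with 126 ± 10.5 CPM against 66.8 ± 6.49 in CTRL (edgeR adjusted p = 2.52e-06). Usp2, a deubiquitinase known to stabilise cyclin D1, rose from 6.41 ± 0.205 to 19.0 ± 3.01 CPM (1.56 ± 0.14, adjusted p = 3.03e-06). Fbxo4, an F-box protein reported to act on cyclin D1, rose at 1 DPA (1.25 ± 0.13) and at 3 DPA (1.19 ± 0.13, adjusted p = 9.50e-05). All 4 calls held in 22 of 22 other settings. The ligase subunit Rbx1 rose at 3 DPA (0.36 ± 0.07), a call that ended without 3 DPA replicate 1 and with the acinar score (adjusted p up to 0.0665). Dtl, the receptor of the ligase that degrades p21 in S phase, rose at 5 DPA from 1.98 ± 0.857 to 5.48 ± 1.95 CPM (1.47 ± 0.32, adjusted p = 0.0184). Its call was lost on omission of the same 3 libraries as that of Foxm1 (CTRL replicates 2 and 3, each alone, and replicate 1 of 5 DPA).

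Of 13 tested chromatin regulators of CDK inhibitor genes, 8 rose and 2 fell at 1 DPA, beside the same 29.2% and 22.4% of all genes, 1 rose at 3 DPA (10.2%) and none was called at 5 DPA. At 1 DPA the 3 smallest p-values were those of Polycomb genes. Eed, part of the complex that trimethylates histone H3 at lysine 27, rose by 0.76 ± 0.06 (log2), with 37.4 ± 2.03 CPM against 22.1 ± 1.07 in CTRL (edgeR adjusted p = 2.27e-06), and Cbx8 (1.39 ± 0.13) and Rnf2 (0.73 ± 0.07), of the complex that reads this mark, rose too. All 3 calls held in 22 of 22 other settings. Kdm6b, a demethylase of the same mark, was 145 ± 27.3 CPM in CTRL, 379 ± 41.8 CPM at 1 DPA and 329 ± 52.9 CPM at 3 DPA, and rose at both times (1.39 ± 0.14 and 1.18 ± 0.14; edgeR, both calls held in 22 of 22 other settings). Ezh2, the methyltransferase of the complex that holds Eed, was called lower at 1 DPA (5.08 ± 0.617 against 6.61 ± 0.487 CPM, -0.38 ± 0.14, edgeR adjusted p = 0.0453). That call ended in 15 of 22 other settings and survived only 3 of the 12 single omissions, those of CTRL replicate 2, 1 DPA replicate 1 and 3 DPA replicate 1. Ezh2 and the 1 DPA value of Kdm6b were added after their values were seen.

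Of 23 tested transcription factors and partners reported to act on these genes, 7 rose and 3 fell at 1 DPA (29.2% and 22.4% of all genes). Trp53, which encodes p53, rose by 0.93 ± 0.10 (log2), with 78.4 ± 11.6 CPM against 41.3 ± 2.33 in CTRL (edgeR adjusted p = 1.01e-05), as did its ligase Mdm2 (0.41 ± 0.07) and Smad2, a TGF-beta effector (0.79 ± 0.10). At 3 DPA, the time of highest Cdkn1a, 4 rose and none fell (10.2% and 2.37% of all genes). Foxo3, a forkhead factor known to activate Cdkn1a and Cdkn1b, went from 84.2 ± 10.2 to 343 ± 114 CPM (2.02 ± 0.21, adjusted p = 0.000138), Mdm2 rose by 0.41 ± 0.07 and Max by 0.30 ± 0.07 (adjusted p = 0.0148). Trp53, the remaining one, was 0.32 ± 0.10 higher (adjusted p = 0.0494), a call that ended in 17 of 22 other settings and survived the omission of replicate 3 of CTRL or replicates 1 or 3 of 1 DPA, and ended without any 1 of the other 9 libraries. At 5 DPA Foxo3 was still called higher (0.91 ± 0.21, adjusted p = 0.0255) and Foxo1 lower (-0.23 ± 0.05, adjusted p = 0.0248). Omitting any 5 DPA library or replicate 3 of CTRL ended both of these calls, and any CTRL library ended that of Foxo3. Max lost its call when replicate 1 of CTRL, or replicate 1 or 3 of 3 DPA, was omitted.

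Over the 5 lists 32 of 81 genes rose and 16 fell at 1 DPA, beside 29.2% higher and 22.4% lower among all genes tested. At 3 DPA 8 rose and 1 fell (10.2% and 2.37% of all genes), and at 5 DPA 8 rose and 1 fell (5.87% and 2.67%). The median log2 fold change of the 81 genes was 0.08, 0.04 and 0.11 at the 3 times. The count of 9 at 5 DPA rests on few libraries: omitting either of CTRL replicates 2 and 3 left 2 calls, omitting replicate 1 of 5 DPA left 1, and omitting replicate 3 of 5 DPA left 5. Over all genes tested, calls at 5 DPA also fell in these omissions, from 1477 to 726, 745, 462 and 823 in that order. The count of 9 at 3 DPA was 15 without 1 DPA replicate 3 and 5 without 3 DPA replicate 1, beside 2182, 2801 and 1372 calls over all genes.

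**Figure D5:**
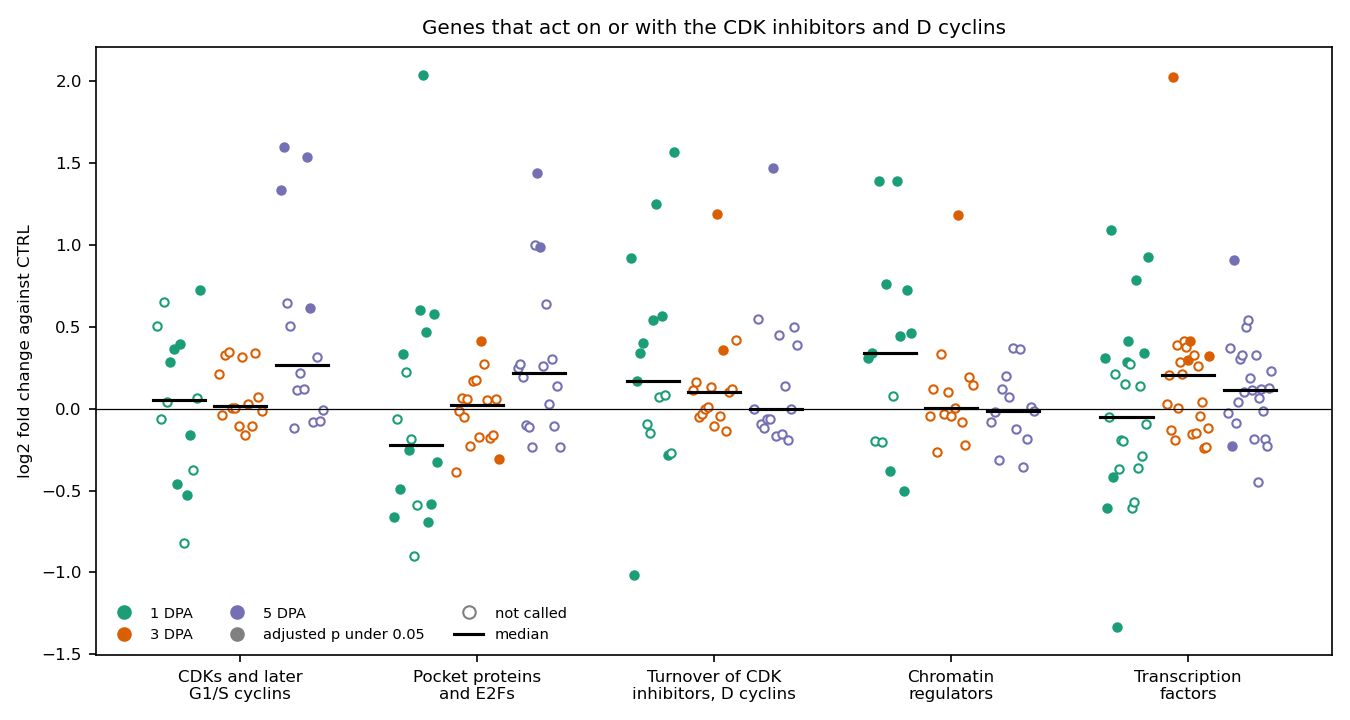
Log2 fold change against CTRL of the tested genes of each of the 5 lists at 1, 3 and 5 DPA, 1 point per gene; filled points are called, open points are not, and black lines give the median of a list. At 1 DPA 48 of 81 points are filled, and at 3 and 5 DPA 9 each, those at 5 DPA mostly among the CDKs, later cyclins and E2F genes.

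For each gene called against CTRL, the genes with the most similar profile over the 12 libraries were listed by Pearson correlation of log2 CPM, among named genes with an average of at least 1 log2 CPM, as a description of libraries that share depth and groups. Closest to Cdkn1a within that limit were Rcan1, a calcineurin inhibitor (r = 0.97, n = 12), Zbtb10 (0.96) and the histone gene Hist1h4c (0.96), whose reads may be shared with other histone copies. Zbtb10 was at 17.7 ± 1.76 CPM in CTRL and, at the 3 times in turn, 88.2 ± 4.85, 321 ± 100.5 and 109 ± 5.20 CPM. Cdkn1b was nearest to Grpel2 (r = 0.97), a mitochondrial import factor gene, Dido1 and Gabpb2 (0.96 each). Ccnd1 was nearest to Amotl1 (r = 0.98), a junction protein gene, Zc4h2 (0.98) and Sec23a (0.97), a coat protein gene of the secretory pathway. Amotl1 was at 98.0 ± 2.29 CPM in CTRL and 65.8 ± 5.31, 103 ± 7.65 and 93.5 ± 7.16 CPM at 1, 3 and 5 DPA. For Ccnd2 the highest values were those of Zfyve9 (r = 0.94), Tmod2 and P2ry6 (0.93 each). Cdkn2a was nearest to Stab2, a scavenger receptor gene (r = 0.97), Gbp2b, an interferon-inducible gene (0.97), and Asb2 (0.96). Cdkn2a and these 3 genes were all highest in the same 3 libraries, with 10.8 ± 9.19 CPM of Gbp2b in CTRL and 11.5 ± 17.4 CPM at 5 DPA. As the 3 genes were picked by correlation with Cdkn2a over these libraries, that is no separate result.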

How the data were processed

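RNA of 12 islet libraries was sequenced after a stranded mRNA kit, per the labels' protocols. The submitters' processing notes name the build mm10. For the aligner, the counter, the annotation and the strand setting, nothing is given in the sources used here. The deposited table holds raw counts per gene and, per the file headers, TPM values made by the authors, whose gene lengths are not given; 24 further columns of per-sample values were not used. Samples were grouped by the labelled treatment and time. Counts were tested with edgeR 4.0.16 in R 4.3.3 (quasi-likelihood, robust, TMM scaling, all 12 libraries in 1 fit). A prior count of 2 was used for log2 CPM values only. Genes passing edgeR's filter at a minimum count of 10 were tested (17294 of 48709), and calls are at a Benjamini-Hochberg adjusted p of 0.05 over all of them. CPM values were computed from the counts and TMM-scaled library sizes; comparisons between genes use TPM. The code was tested on simulated data. No replicate pair agreed within sampling noise. Loci came from GENCODE M21 (48349 IDs matched) and promoters from RefSeq.

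Alternatives were other scalings, no filter, DESeq2 1.42.0, limma-voom (limma 3.58.1), marker scores as covariates, the replicate number as a block, only the 2 groups compared, and each library left out. For Cdk4, Cdk6, Trp53, Mki67, Kdm6b, Ezh2 and the named pathway genes these were chosen after seeing the data. The rule for named pathway genes was the 3 called genes of each list with the smallest p in each comparison with CTRL. The genes described and all lists were chosen with earlier results of these data known. Replicate numbers come from the labels, which do not say that they pair samples; across 3 and 5 DPA same-numbered samples deviated together (r 0.156 to 0.326), and in every other pair of groups at least 1 such correlation was not over 0.1.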

Additional observations from a re-analysis of the deposited data

Results flagged for a closer look

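The difference between toxin times was tested directly for each gene (edgeR, adjusted over all genes), and 7 such differences in 4 genes passed. Of all genes tested, 45.1% passed from 1 to 3 DPA, 3.16% from 3 to 5 DPA and 56.1% from 1 to 5 DPA. Cdkn1a was higher at 3 than at 1 DPA (1.59 on the log2 scale) and lower at 5 than at 3 DPA (-1.12). Cdkn1b was lower at 3 than at 1 DPA (-0.25) and at 5 than at 1 DPA (-0.33). Ccnd1 was higher at 3 than at 1 DPA (0.94) and at 5 than at 1 DPA (0.77). Cdkn2c was higher at 5 than at 1 DPA (0.87). Of 22 other settings, the Cdkn1a rise held in 22 and its fall in 5. In the order given, the Cdkn1b calls held in 16 and 19, both Ccnd1 calls in 22 and that of Cdkn2c in 18. Groups of 3 were not checked for outlying samples.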

How the results depend on the processing

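With 3 libraries a group, small changes were near the threshold. The count of the 10 genes called at 1 DPA (5) was 8 with library sizes without the 50 most abundant genes (and no TMM factors) and 3 with the macrophage score. Calls over all genes tested were 8916, 9746 and 6832 in turn. From 1 to 3 DPA (3) the count of the 10 was 5 without those 50 genes (all genes 7805 and 8255). From 1 to 5 DPA (3) it was 7 without them, 1 with the macrophage or the stromal score, and 5 with the acinar score or DESeq2. All-gene calls there were 9703, then 10056, 3117, 3425, 9718 and 10043 in that order. At 3 DPA (1) DESeq2 called 2 (all genes 2182 and 2900), and at 5 DPA (1) the stromal score left 0 (all genes 1477 and 89). From 3 to 5 DPA (1) the count was 0 with RLE scaling, without the 50 genes, without a filter, with the replicate block, with the stromal or acinar score and with only the 2 groups. There 547 of all genes were called, and 117 to 899 in those settings. Over the 4 groups (4) the count of the 10 was 2 with the macrophage or stromal score (all genes 9933, then 6655 and 7098). Pathway calls at 3 DPA (9) were 4 with the acinar score and 15 with DESeq2 (all genes 2182, then 1356 and 2900). At 5 DPA (9) they were 0 with the macrophage or stromal score and 2 with only the 2 groups (all genes 1477, then 198, 89 and 622). From 1 to 3 DPA (40) they were 25 with the stromal score (all genes 7805 and 4519). From 3 to 5 DPA (12) they were 2, 1 and 3 with the macrophage, stromal and acinar scores, and from 1 to 5 DPA (63) 24 and 25 with the first pair. All-gene calls moved too, from 547 to 222, 117 and 239, and from 9703 to 3117 and 3425. The cause was not tested.

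Leaving out 1 library gave 3 to 6 of the 10 genes at 1 DPA, 1 to 2 at 3 DPA, 1 in each case at 5 DPA, 2 to 4 from 1 to 3 DPA, 0 to 1 from 3 to 5 DPA, 2 to 5 from 1 to 5 DPA and 3 to 6 over the 4 groups. Pathway calls were 43 to 52, 5 to 15, 1 to 13, 33 to 42, 0 to 12 and 55 to 64 in the 6 comparisons, in the same order. All-gene calls were 7852 to 9619, 1372 to 2801, 462 to 2137, 6173 to 8634, 31 to 1018 and 8492 to 10202 in that order. Over the 4 groups they were 8584 to 10492. The Cdkn2a difference at 1 DPA reversed to 0.30 with the macrophage score. With the replicate block the numbers may not pair the samples. Cdkn2a at 1 DPA (adjusted p = 0.0673) and Cdkn1a from 3 to 5 DPA (adjusted p = 0.0921, edgeR) were then not called. Cdk4 at 1 DPA (0.0603) and Trp53 at 3 DPA (0.0589) lost their calls, and Mki67 at 5 DPA gained a call (0.0176). With that block 4 of the 10 genes were called at 1 DPA, beside 8430 of all 17294 genes tested. At 3 and 5 DPA, 6 of 6 samples correlated best with their own number. A change of sign in a gene not called was not counted.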
